A study of Heterocephalus glaber with 2 samples.

Results

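The cornified envelope and barrier genes are a set of 45 genes whose products build and maintain the outer, dead layer of the epidermis. They were read here in back skin, sampled through its full thickness, of the naked mole-rat, Heterocephalus glaber, a long-lived rodent that lives underground. A gene counted as a member when its symbol stood in the gene name column of the deposited tables, and the locus of highest mean was taken for each symbol. Of the 45 genes listed, 31 were found this way among 24514 loci. A further 7 were found only through the NCBI gene number in the locus description (LOR, DMKN, TGM3, DSG1, DSC1, DSC3 and PERP). Their values are given beside the others, while every count is over the 31 unless the 38 are named. The other 7, IVL, FLG, FLG2, CALML5, DSG3, CLDN4 and ASPRV1, matched no locus by name or gene number, which says nothing of their expression.

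Old skin was labelled as 19 years old and young skin as 4 years old. Each age is a single GEO sample with 2 tables, numbered 1 and 2 in their headers and treated as libraries: old 1, old 2, young 1 and young 2. The labels give no treatment or genotype. They also leave unsaid if 2 libraries of the same age are 2 animals, so a p-value here reflects no more than the spread among these libraries, which may be technical. Values are FPKM, fragments scaled to locus length and library size, with unknown read depth, and the sum per library ran between 401039 and 445064. The library numbers differed in RNA composition. Small structural RNAs held 52.0% of the summed FPKM in old 1 and 47.6% in young 1, but 0.355% in old 2 and 0.130% in young 2. Mitochondrial loci held 4.06% in old 1 and 29.6% in old 2, against 5.77% in young 1 and 23.2% in young 2. Ages were therefore compared within each number, 1 library against 1, with no replicate check.

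Keratinocytes leave the basal layer, fill with keratin and finally cross-link a sheath of protein under their membrane while they glue themselves to their neighbours with desmosomes. Ceramides are attached to this cornified envelope and stacked between the cells, which keeps water in. Proteases later cut the desmosomes so that cells are shed, and a small group of transcription factors switches the whole programme on.

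The tissue label was checked against keratinocyte markers. KRT10, the keratin of the upper living layers, stood at 1323 FPKM in old 1 and 3693 FPKM in old 2, against 1285 FPKM in young 1 and 3823 FPKM in young 2. Its partner KRT1, in a locus joined with KRT77, stood at 814 and 1224 FPKM in the old libraries, against 726 and 1210 FPKM (1209.5) in the young ones. Both therefore differed little between ages within a number. KRT5 of the basal layer stood at 700 FPKM (699.5) in old 1 against 662 in young 1, and at 402 FPKM in old 2 against 1361 in young 2. KRT14, in a locus joined with KRT16, stood at 295 FPKM in old 2 against 744 in young 2. Of 7 matched hair follicle genes, only SOX9 reached a mean of 1 FPKM, and their summed level lay between 0.97 and 2.07 FPKM in the 4 libraries.

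In number 1 most barrier genes were lower in old skin, by small ratios, and in number 2 most were higher. Within number 1, 10 of the 31 members were higher in old skin and 21 lower, with a median log2 ratio of -0.15. Within number 2, 24 were higher and 7 lower, with a median of 0.41. All 31 passed a filter on low values, a mean FPKM of 1 or more over the 4 libraries, as did 12753 loci in all. Of these loci 58.7% were higher and 41.2% lower in old skin in number 1, with a median of 0.07. In number 2, 44.4% were higher and 54.6% lower, with a median of -0.06. Log2 ratios and counts of genes over 2-fold are of FPKM + 1, old over young, which understates the difference of low genes. Ratios and folds of single genes that are not on the log2 scale are of FPKM itself. The most frequent pattern was a value lower in old 1 than young 1 and higher in old 2 than young 2, shown by 16 members (51.6%) beside 17.6% of all loci. Another 8 were higher in both numbers (26.7% of all loci were), 5 lower in both (23.1%) and 2 higher in number 1 and lower in number 2 (31.5%). Of the 38, 13 were higher and 25 lower in number 1, and 26 higher and 12 lower in number 2. Among the 38, 18 (47.4%) were lower in old 1 and higher in old 2, and 5 went the other way.

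**Figure D1:**
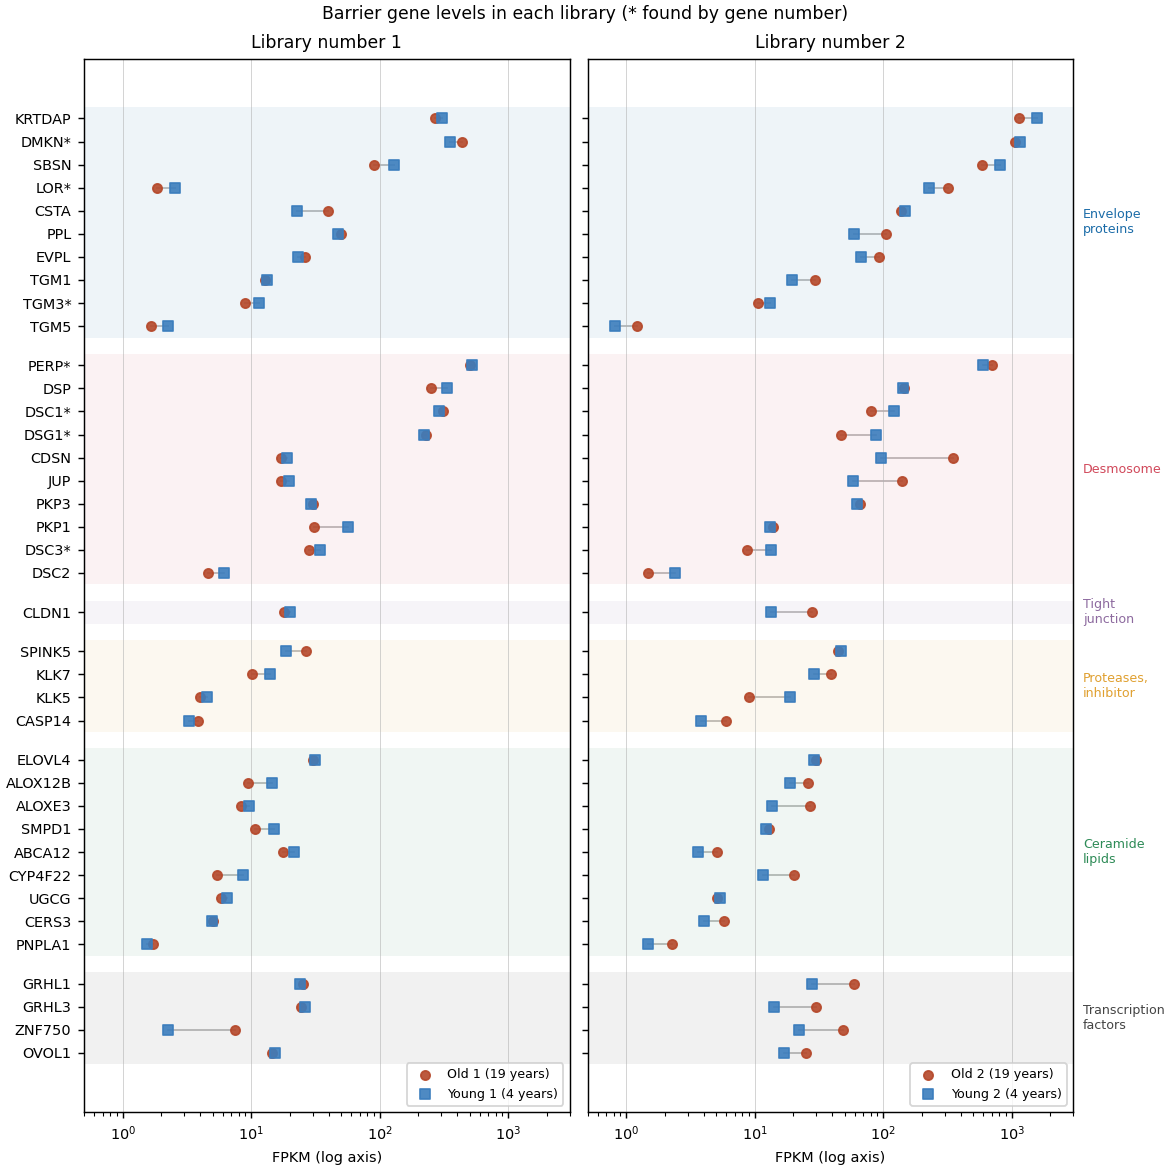
FPKM on a log axis of the 38 barrier genes found, in library number 1 (left) and number 2 (right), with circles for old skin (19 years) and squares for young skin (4 years), ordered by role and by mean level. Each point is 1 library. Old and young points lie close together for most genes in number 1, while in number 2 the old points of CDSN, JUP, CLDN1, GRHL1, GRHL3 and ZNF750 lie to the right of the young ones.

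No member passed the test for age. With age as the single term this test says little of the members, since the difference between library numbers then counts as spread. Limma over all 12753 loci with age as the single term called 0 members higher and 0 lower at adjusted p 0.05, where it called 0% of all loci in either direction, and 0 members had an unadjusted p under 0.05, as 0.612% of all loci did. With the library number as a second term it again called 0 and 0 members, where it called 0.00784% of loci higher and 0.0157% lower. Unadjusted p was then under 0.05 for 1 of the 31 members, ZNF750, a smaller share than the 6.56% of all loci. Across the 31 members the adjusted p of limma with this term ran between 0.357 and 1.00. With 2 libraries per age, the smallest p that exact permutation allows is 0.33.

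A difference over 2-fold was therefore used as a description. In number 1 it was met by 1 member higher in old skin (2.36% of all loci were) and 0 lower (1.83%). In number 2 it was met by 6 members, 19.4%, higher in old skin (4.33% of all loci were) and 0 lower (5.55%). These 6 were CDSN, JUP, CLDN1, GRHL1, GRHL3 and ZNF750. ZNF750 alone was over 2-fold higher in both numbers (0.314% of all loci were), and no member was over 2-fold lower in both (0.557% of loci). In bulk skin, fewer cells of a type and less RNA per cell cannot be told apart, for these and all later values.

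Markers of other cell types differed between the same libraries. All 7 fibroblast markers had lower values in old skin in each number. Their summed level was 926 FPKM in old 1 against 6345 in young 1 and 294 in old 2 against 8986 in young 2. The median log2 ratio of the 7 was only -0.15 in number 1, where 3 were over 2-fold lower. In number 2 the median was -2.16, with 5 over 2-fold lower. All 5 adipocyte markers matched were higher in old 1 than in young 1 and lower in old 2 than in young 2, with sums of 717 against 447 FPKM and 140 FPKM (140.0) against 258. Summed basal keratinocyte markers, 7 of 7 matched, were 1014 FPKM in old 1 against 1033 in young 1 and 819 in old 2 against 2164 in young 2. That sum is mostly KRT5 and KRT14, and 2 of the 6 tested basal markers were higher in old 2, among them COL17A1, a hemidesmosome collagen, at 85.4 FPKM in old 2 against 25.7 in young 2. Summed suprabasal markers, with 5 loci matched and KRT2 near 0, were 2165 against 2040 FPKM in number 1 and 5072 against 5096 FPKM in number 2. KRT10 and KRT1 make up most of it, while KRT80, a keratin of low share in the sum, stood at 147 FPKM in old 2 against 55.0 in young 2. Skeletal muscle markers summed to 3644 and 4531 FPKM in old skin, against 3019 and 3314 FPKM in young skin. Of the 6 muscle markers tested, 2 were lower in old 1 than in young 1 and 1 was lower in old 2 than in young 2. The sums of sebocyte, endothelial, immune and melanocyte markers were all lower in old skin in each number. They were 160.4 and 76.6 FPKM in old skin for sebocytes, against 248 and 129.8 FPKM in young skin, and for immune cells 102 and 256 FPKM in old skin, against 149 and 518 FPKM in young skin. Endothelial markers summed to 81.1 and 56.7 FPKM in old skin, against 97.8 and 64.0 FPKM in young skin, and melanocyte markers to 12.6 and 44.7 FPKM in old skin, against 37.0 and 97.7 FPKM in young skin. Single markers went against these sums. In number 1, 2 of 5 tested sebocyte, 0 of 6 endothelial, 2 of 6 immune and 1 of 4 melanocyte markers were higher in old skin. In number 2 these counts were 1, 1, 1 and 1. The part of these differences in the values of the barrier genes was not tested.

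Envelope proteins are the bricks of the sheath and the enzymes that cross-link them, and 10 of 14 listed were found, 7 of them by name. These 7 had median log2 ratios of -0.04 for number 1 and 0.29 for number 2, and 0 of them differed over 2-fold in either. KRTDAP and SBSN are small proteins secreted by differentiating keratinocytes and were the most abundant members found by name. KRTDAP stood at 267 and 1145 FPKM in old 1 and old 2, against 303 and 1584 FPKM in young 1 and young 2. SBSN stood at 89.7 and 584 FPKM in old skin, against 128 and 807 FPKM in young skin. Each was lower in old skin in both numbers, with old-over-young ratios of 0.881 and 0.723 for KRTDAP and of 0.7005 and 0.723 for SBSN. DMKN, a secreted protein of the same kind, stood at 435 and 1065 FPKM in old skin and at 354 and 1163 FPKM in young skin. In the RefSeq gene table of H.glaber_assembly_v1.0, DMKN lies between SBSN and KRTDAP with no other protein-coding gene among them, and unlike its neighbours it was higher in old 1 than in young 1.

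LOR encodes loricrin, a glycine-rich main component of the envelope, and had the widest range of any member found, as a ratio of its highest to its lowest value. It stood at 1.84 and 321 FPKM in old 1 and old 2, against 2.54 and 228 FPKM in young 1 and young 2. The difference between the numbers, 175-fold at the old age and 89.7-fold at the young age, was far larger than that between ages, where it was lower in old 1 than in young 1 and higher in old 2 than in young 2. LOR was thus a high-level gene in the number 2 libraries and a low-level gene in the number 1 libraries at either age.

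The plakins PPL and EVPL, which tie the envelope to keratin filaments and desmosomes, were both higher in old skin in both numbers. PPL stood at 50.2 and 104 FPKM in old skin, against 46.9 and 59.1 FPKM in young skin. EVPL stood at 26.2 and 92.7 FPKM in old skin, against 23.0 and 67.6 FPKM in young skin. In both genes the ages overlapped, since each old 1 value lay under young 2. CSTA, a cysteine protease inhibitor built into the envelope, stood at 39.5 and 137 FPKM in old skin, against 22.7 and 146 FPKM in young skin.

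Transglutaminases make the cross-links. TGM1, the membrane-bound enzyme, stood at 12.8 and 29.2 FPKM in old skin, against 13.2 and 19.5 FPKM in young skin. TGM3 stood at 8.90 and 10.6 FPKM in old skin, against 11.6 and 13.2 FPKM in young skin, so that both old libraries lay under both young ones. TGM5, another enzyme of the family, was the lowest of the 3, at 1.65 and 1.22 FPKM in old skin and 2.26 and 0.814 FPKM in young skin. TGM3 was the only 1 of the 38 whose old values both lay under the young values, and it is among those found by gene number. Over all loci 6.46% had such values.

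Desmosome genes supply the rivets between keratinocytes, and 10 of 11 listed were found, 6 of them by name. The 6 had median log2 ratios of -0.27 for number 1 and 0.08 for number 2. CDSN, or corneodesmosin, which holds the dead cells together until shedding, stood at 17.0 and 348 FPKM in old 1 and old 2, against 18.9 and 95.2 FPKM in young 1 and young 2. It was 3.66-fold higher in old 2 than in young 2 and 0.899-fold in number 1, and old 2 stood alone above the other libraries. JUP, or plakoglobin, which joins desmosomal cadherins to the plaque, stood at 17.0 and 140.1 FPKM in old skin, against 19.5 and 58.3 FPKM in young skin. Its ratios of 2.40 in number 2 and 0.869 in number 1 had the same shape as those of CDSN.

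Desmosomal cadherins are the adhesion molecules that cross the gap between cells, and the 4 found among the members were lower in old skin in number 2. DSG1 stood at 229 and 46.5 FPKM in old 1 and old 2, against 221 and 88.1 FPKM in young 1 and young 2. DSC1, like DSG1 a cadherin of the upper layers, stood at 308 and 80.2 FPKM in old skin, against 287 and 121 FPKM in young skin. DSC3, found lower in the epidermis, stood at 28.2 and 8.63 FPKM in old skin, against 34.5 and 13.3 FPKM in young skin. All of these, and DSC2 at 4.59 and 1.47 FPKM in old skin against 6.09 and 2.41 FPKM in young skin, were lower in old 2 than in young 2. The old-over-young ratios of the 4 in number 2 lay between 0.528 and 0.664, and in number 1 between 0.753 and 1.07, where the ratio of DSG1 turned to the lower side under median-of-ratios scaling. DSG1, DSC1, DSC2 and DSC3 lie in 1 cluster in the same RefSeq gene table, beside DSG3. DSG2, a further desmosomal cadherin that is no member, went against them, with 6.07 and 3.97 FPKM in old skin, against 9.56 and 1.36 FPKM in young skin, higher in old 2 than in young 2.

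Plaque proteins anchor these cadherins to keratin. DSP, or desmoplakin, the most abundant desmosome gene found by name, stood at 252 and 145 FPKM in old skin, against 333 and 143 FPKM in young skin. PKP1 stood at 30.996 and 13.9 FPKM in old skin, against 57.1 and 13.1 FPKM in young skin, so that the age difference lay in number 1. PKP3, another plakophilin, stood at 30.1 and 65.8 FPKM in old skin, against 29.0 and 62.6 FPKM in young skin. PERP, a membrane protein needed for stable desmosomes in mice, stood at 501 and 695 FPKM in old skin, against 518 and 595 FPKM in young skin. The values of PKP3 thus differed by less between ages than between the libraries of an age.

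**Figure D2:**
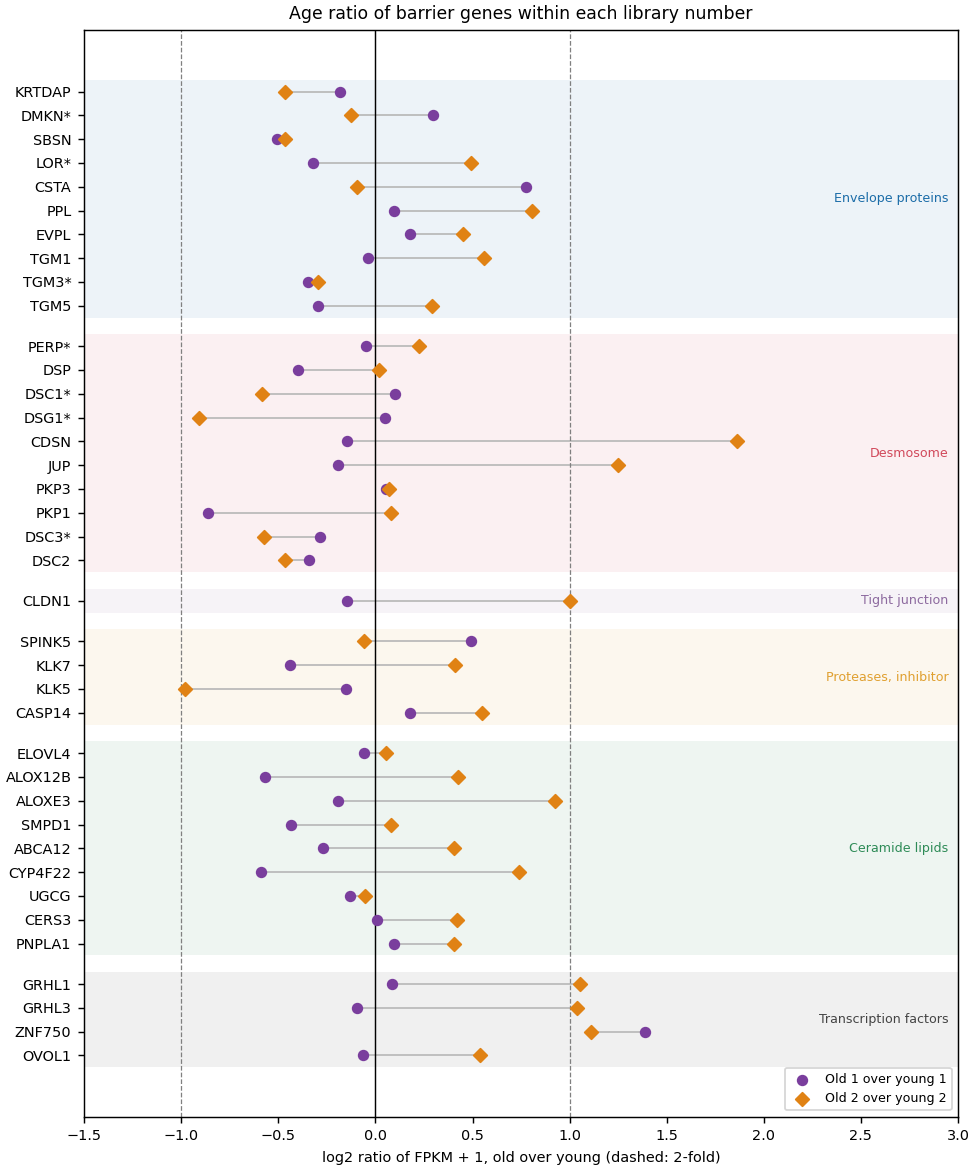
Log2 ratio of FPKM + 1, old over young, for each of the 38 barrier genes found, with circles for number 1 and diamonds for number 2 and dashed lines at 2-fold. Most genes have the number 2 point to the right of the number 1 point. The cadherins DSG1, DSC1, DSC2 and DSC3 have it to the left, as do KRTDAP, DMKN, CSTA, KLK5, SPINK5 and ZNF750. ZNF750 has both points past the line.

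The single tight junction gene found was CLDN1, whose protein seals the granular layer and whose loss lets water escape through the skin of mice. It stood at 17.96 and 27.7 FPKM in old 1 and old 2, against 20.0 and 13.3 FPKM in young 1 and young 2. The old-over-young ratio was 0.898 in number 1, against 2.08 in number 2, and the old and young values overlapped.

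Proteases and their inhibitor control shedding and the breakdown of filaggrin, and 4 of 5 listed were found. Their median log2 ratios were 0.01 for number 1 and 0.18 for number 2. KLK5, a kallikrein that starts the cutting of corneodesmosomes, stood at 3.96 and 9.06 FPKM in old skin, against 4.50 and 18.9 FPKM in young skin. KLK7, which acts after it, stood at 10.1 and 38.9 FPKM in old skin, against 14.03 and 29.0 FPKM in young skin. With 1 protein-coding gene between them in the RefSeq table, the pair had opposite directions in number 2, at ratios of 0.480 for KLK5 and 1.34 for KLK7. On the scale of FPKM + 1, KLK5 had a log2 ratio of -0.98 in number 2 and thus lay just inside 2-fold.

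SPINK5, whose product LEKTI inhibits these kallikreins, stood at 26.6 and 44.6 FPKM in old skin, against 18.6 and 46.5 FPKM in young skin. The number 2 ratio of SPINK5, 0.960, turned to the higher side under median-of-ratios scaling and without structural RNA and mitochondrial loci. CASP14, a caspase of cornifying cells that takes part in filaggrin breakdown, stood at 3.85 and 6.01 FPKM in old skin, against 3.30 and 3.78 FPKM in young skin. CASP14 was 1 of 3 members, with CERS3 and PNPLA1, whose old values both lay above the young values. That is 9.68% of the 31, where 7.3% of all loci had such values. The count was 0 under median-of-ratios scaling and 5 without structural RNA and mitochondrial loci.

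All 9 genes of ceramide lipids were found, with median log2 ratios of -0.19 for number 1 and 0.41 for number 2. In number 1, 7 of the 9 were lower in old skin, and in number 2, 8 of the 9 were higher. ALOX12B and ALOXE3, the lipoxygenases that act in turn on the linoleate of ceramides before they are bound to the envelope, are immediate neighbours in the RefSeq table. ALOX12B stood at 9.37 and 25.8 FPKM in old 1 and old 2, against 14.4 and 19.0 FPKM in young 1 and young 2. ALOXE3 stood at 8.35 and 26.9 FPKM in old skin, against 9.69 and 13.7 FPKM in young skin. CYP4F22, which hydroxylates the very long fatty acids of these ceramides, stood at 5.44 and 20.2 FPKM in old skin, against 8.70 and 11.7 FPKM in young skin. These 3 were lower in old 1 and higher in old 2 than their young counterparts, with number 2 ratios of 1.36 for ALOX12B, 1.96 for ALOXE3 and 1.73 for CYP4F22.

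ABCA12, the lipid transporter of lamellar granules, stood at 17.6 and 5.08 FPKM in old skin, against 21.5 and 3.60 FPKM in young skin. CERS3, which makes ceramides with very long acyl chains, stood at 5.01 and 5.72 FPKM in old skin, against 4.98 and 4.01 FPKM in young skin. PNPLA1, which joins linoleate to those ceramides, stood at 1.71 and 2.27 FPKM in old skin, against 1.54 and 1.47 FPKM in young skin. CERS3 and PNPLA1 were thus nearly level in number 1, where the ratio of CERS3 turned to the lower side under median-of-ratios scaling, and higher in old skin in number 2.

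Of the other lipid genes, ELOVL4 and UGCG were close to level. ELOVL4, which elongates fatty acids to the lengths used by CERS3, stood at 30.07 and 30.0004 FPKM in old skin, against 31.4 and 28.9 FPKM in young skin. Its highest and lowest values were closer in ratio than those of any other member found, and its number 1 direction turned without structural RNA and mitochondrial loci. UGCG, which adds glucose to ceramide for transport, stood at 5.80 and 5.11 FPKM in old skin, against 6.46 and 5.33 FPKM in young skin, and its number 2 direction turned under median-of-ratios scaling and without those loci. SMPD1, acid sphingomyelinase, stood at 10.8 and 12.9 FPKM in old skin, against 14.9 and 12.1 FPKM in young skin. Its old-over-young ratio was 0.722 in number 1 and 1.06 in number 2.

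The transcription factors had the highest median of any role with more than 1 member in number 2, 1.04, with 0.01 in number 1, and all 4 were higher in old 2 than in young 2. GRHL1, a grainyhead factor that acts on desmosomal cadherin genes in mice, stood at 25.4 and 59.2 FPKM in old 1 and old 2, against 23.9 and 27.97 FPKM in young 1 and young 2. GRHL3, needed for barrier formation in mice, stood at 24.3 and 30.2 FPKM in old skin, against 26.05 and 14.2 FPKM in young skin. OVOL1, which helps cells leave the cycle as they differentiate, stood at 14.5 and 24.8 FPKM in old skin, against 15.2 and 16.7 FPKM in young skin. The number 2 ratios were 2.11 for GRHL1, 2.12 for GRHL3 and 1.48 for OVOL1, while the number 1 ratios lay between 0.934 and 1.06, that of OVOL1 turning to the higher side without structural RNA and mitochondrial loci.

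ZNF750, a zinc finger factor that promotes terminal differentiation, was the only member over 2-fold different in the same direction in both numbers. It stood at 7.50 and 48.5 FPKM in old 1 and old 2, against 2.25 and 21.9 FPKM in young 1 and young 2. It was 3.33-fold higher in old 1 than in young 1 and 2.21-fold higher in old 2 than in young 2, yet the ages overlapped, with old 1 under young 2. Limma gave a log2 difference of 1.25 ± 1.24 (SE, adjusted p = 1.00) with age alone and 1.25 ± 0.29 (SE, adjusted p = 0.357) with the library number as a term, 2 libraries per age. Over the other settings tried the adjusted p ran between 0.171 and 1.00. The log2 difference with age alone was -0.02 without old 2 and -0.16 without young 1, and 2.52 without old 1 and 2.66 without young 2.

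The members also differed between library numbers at the same age. At both ages 9 of the 31 were over 2-fold higher in number 2 than in number 1 (7.63% of all loci were), and 3 over 2-fold lower (17.3%). Among those higher in number 2 were SBSN, 6.51-fold in old skin and 6.30-fold in young skin, KRTDAP, 4.29-fold and 5.23-fold, CDSN, 20.5-fold and 5.03-fold, and ZNF750, 6.47-fold and 9.74-fold. ABCA12 was 3.47-fold higher in old 1 than in old 2 and 5.97-fold higher in young 1 than in young 2, and PKP1 was 2.23-fold and 4.37-fold higher. DSG1 was likewise 4.92-fold higher in old 1 than in old 2 and 2.51-fold higher in young 1 than in young 2. Among the 38, 6 of 10 envelope protein genes were over 2-fold higher in number 2 at both ages, while DSG1, DSC1, DSC2 and DSC3 were all over 2-fold lower.

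**Figure D3:**
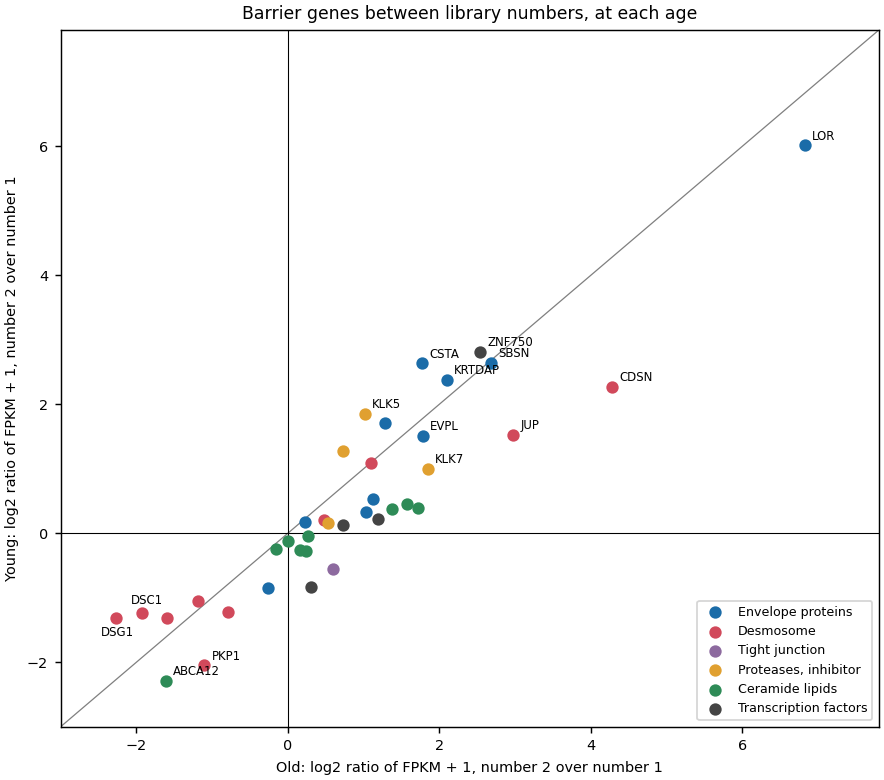
Log2 ratio of FPKM + 1, number 2 over number 1, in old skin (x axis) and young skin (y axis) for the 38 barrier genes found, coloured by role, with a line where the ages are equal. LOR lies far to the upper right, CDSN and JUP lie below the line, and DSG1, DSC1, PKP1 and ABCA12 lie at the lower left.

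Summed over the 38 genes, the barrier set took 1.32% of the FPKM outside structural RNA and mitochondrial loci in old 1 and 1.92% in old 2, against 1.43% in young 1 and 1.71% in young 2. Its summed level was 0.965-fold in number 1 and 0.980-fold in number 2, old over young. The summed FPKM thus differed little with age, while the share was lower in old 1 and higher in old 2 than at the young age. In the number 2 libraries the sum was mostly made up of KRTDAP, DMKN, SBSN and PERP. By role, the number 2 sum was 0.854-fold for envelope proteins, 1.00-fold for proteases, 1.30-fold for the desmosome and 1.34-fold for ceramide lipids. It was 2.01-fold for transcription factors and 2.08-fold for CLDN1. In number 1 the roles ran between 0.829-fold and 1.10-fold.

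Other genes of barrier formation were read from 5 lists of further envelope, junction, protease, lipid and regulator genes. Limma called 0 members of each list in either direction, with or without the library number as a term, among 11, 19, 14, 25 and 21 tested. In that order, their median log2 ratios were 0.29, 0.13, -0.09, 0.03 and -0.22 in number 1 and -0.12, 0.46, -0.37, 0.18 and 0.43 in number 2. No gene of the 5 lists was over 2-fold different in the same direction in both numbers on the scale of FPKM + 1. On FPKM itself 1 was, ELOVL6, a fatty acid elongase, with 2.99 and 0.020 FPKM in old skin, against 7.41 and 0.901 FPKM in young skin, where the number 2 values lie under 1 FPKM. Of the 21 regulators 14 were lower in old 1 and higher in old 2 than their young counterparts. The same held for 3 of the 11 envelope genes, 7 of the 19 junction genes, 4 of the 14 protease genes and 7 of the 25 lipid genes, where 17.6% of all loci had this pattern.

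The genes of highest mean in each list are given as examples. CSTB, a cystatin, stood at 177 and 636 FPKM in old 1 and old 2, against 135 and 3396 FPKM in young 1 and young 2, so that young 2 stood alone. S100A11, a calcium-binding protein cross-linked into the envelope, stood at 65.3 and 641 FPKM in old skin, against 66.3 and 589 FPKM in young skin. KLF4, a zinc finger factor of barrier formation, stood at 53.4 and 133 FPKM in old skin, against 65.9 and 85.3 FPKM in young skin. The lysosomal protease CTSD and the saposin precursor PSAP were close to level, with old-over-young ratios of 0.939 and 0.994 in number 1 and of 1.16 and 1.14 in number 2. Of the gap junction genes, GJA1 had ratios of 1.03 in number 1 and 1.36 in number 2, and GJB5 had 1.17 and 0.950. SERPINB5, or maspin, had ratios of 1.11 and 0.668. SULT2B1, which makes the cholesterol sulfate of the barrier, stood at 16.8 and 140.2 FPKM in old skin, against 18.8 and 77.5 FPKM in young skin. RORA, a nuclear receptor, stood at 43.5 and 11.9 FPKM in old skin, against 67.4 and 20.1 FPKM in young skin, and was thus lower in old skin in both numbers.

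Some genes of these lists were picked after their values were seen. CNFN, or cornifelin, stood at 20.6 and 349 FPKM in old 1 and old 2, against 26.5 and 153 FPKM in young 1 and young 2, a pattern like that of CDSN. LIPN, a lipase of late differentiation, stood at 2.31 and 5.38 FPKM in old skin, against 1.32 and 0.61 FPKM in young skin. TGM2, the tissue transglutaminase, stood at 26.5 and 42.8 FPKM in old skin, against 16.6 and 12.3 FPKM in young skin. Both old values of LIPN and TGM2 lay above both young ones. TP63, the master factor of stratified epithelium, stood at 7.69 and 2.56 FPKM in old skin, against 14.4 and 7.48 FPKM in young skin, lower in old skin in both numbers. None of these 4 passed limma with the library number as a term, where the adjusted p of TP63 was 0.404.

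**Figure D4:**
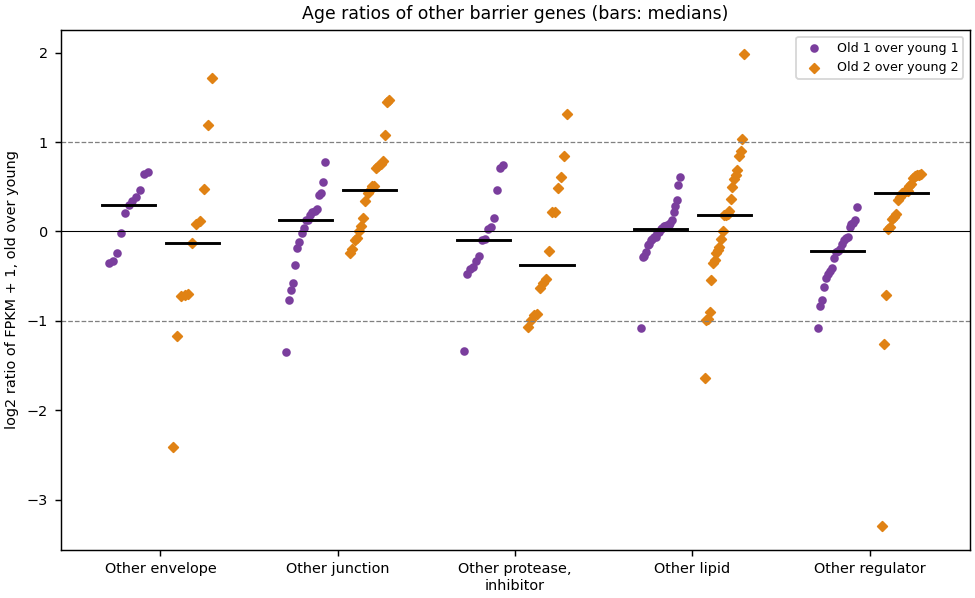
Log2 ratio of FPKM + 1, old over young, of the tested genes in 5 lists of further barrier genes, with circles for number 1, diamonds for number 2 and bars at the medians. The number 2 ratios span a wider range than the number 1 ratios in each list but the junction genes, and the regulators have medians of -0.22 in number 1 and 0.43 in number 2.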

How the data were processed

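Per the labels' protocols, total RNA with an integrity number above 7.5 was depleted of ribosomal RNA and sequenced as paired reads of 2 × 150 bases. Tools listed in the submitters' processing notes, with no versions, are TopHat2, Bowtie2, cutadapt and FastQC. The build and the quantifying software were not given in the sources used here, nor was the annotation. The authors deposited FPKM, 1 value per locus in each of 4 tables, with a floor of 0.0001. Depth is unknown, so no counting error is given.

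FPKM were put on the scale log2(FPKM + 1), and the 12753 loci whose mean reached 1 FPKM were fitted with limma (3.58.1, R 4.3.3), with a mean-variance trend, two-sided tests and Benjamini-Hochberg adjustment over all of them. The members and lists were chosen with earlier results of these data known. All members found are named. From other lists, the rule named genes over 2-fold different in both numbers (on FPKM + 1), of which there were none, and then the 2 of highest mean. Marker lists are given mostly as sums. CNFN, LIPN, TGM2, TP63, DSG2, ELOVL6, COL17A1 and KRT80 were picked outside this rule, with their values known. Symbols missing from the tables were looked up by NCBI gene number in a RefSeq gene table of H.glaber_assembly_v1.0. Promoter motifs and protein composition were not analysed here. Values were tabulated with pandas 2.3.3 in Python 3.11.15.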

Additional observations from a re-analysis of the deposited data

How the results depend on the processing

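The count of members called was 0 in either direction under each of these settings: median-of-ratios scaling, a pseudocount of 0.1, a stricter filter (mean of 5 FPKM) or none, structural RNA and mitochondrial loci left out, loci summed per symbol, no trend, robust moderation, adjusted p 0.10, each library left out, the replicate block, and the 38 members found by name or number. This says little of the members, since limma with age alone called 0 of 12753 loci, and the settings without a library, where the lone library of an age is assumed to vary like the other age, called at most 32 loci in a direction. The replicate block, the library number as a term, gave ZNF750 a log2 difference of 1.25 (adjusted p = 0.357). The number comes from the table headers and no label says that it pairs the libraries. The difference between numbers correlated at 0.823 between the ages across 12753 loci, which are not independent. Leaving out each library in turn, the log2 difference of ZNF750 ran between -0.16 and 2.66, with the sign turned without old 2 (-0.02) and without young 1 (-0.16).

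The members whose old values both lay above the young values numbered 3, but 0 with a minimum mean of 5 FPKM (the 3 had lower means), 0 with median-of-ratios scaling and 5 without structural RNA and mitochondrial loci, where for the last 2 the cause was not tested. With a library left out they numbered 3 (without old 2) to 18 (without old 1), with 10 without either young library. Those below numbered 2 (without old 1) to 12 (without old 2), with 5 without young 1 and 8 without young 2, against 0 with all 4, since fewer libraries then had to be separated. Below both young values lay 1 of the 38 found by name or number. By role, the number 2 median was 1.00 for the tight junction gene and 1.04 for the transcription factors against 0.41 for all 31, and the number 1 medians moved by less than the spread between the numbers. Under the other settings, the medians of the members stayed between -0.21 and -0.07 in number 1 and between 0.35 and 0.54 in number 2. Of 304 ratios of single members under 4 settings, 13 changed sign, the largest of them -0.13, DMKN in number 2. All 13 came from median-of-ratios scaling or from leaving out structural RNA and mitochondrial loci. The other 2 settings could not turn a sign. These were the pseudocount of 0.1 and the sum of loci per symbol, since each member found had 1 locus. With 1 library per age and number, a difference in number 2 that number 1 lacks has no replicate check, and whether the ratios differ between the numbers was not tested.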
